A study of Mus musculus with 5 samples.

Results

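The miR-34 family was taken as the rows of the deposited table named mmu-miR-34a-5p, mmu-miR-34b-5p and mmu-miR-34c-5p. These are 3 of the 1105 mature miRNAs listed, and 471 of all listed had a read in at least 1 library. The rule takes the rows by name, and the family was picked with earlier results of these data known. Of the listed names 816 end in 5p and 126 in 3p, so many 3p strands are not analysed here. Small RNAs were sequenced from OP9, a mouse bone-marrow stromal line labelled as mesenchymal stem cells, on day 10 of adipogenic differentiation under 1 µM rosiglitazone, a PPARγ agonist that all libraries received. One group was labelled Drosha KO (2 libraries) and the other Empty vector, with genotype WT (3 libraries, called controls here). The labels do not say how the knockout was made, whether it was 1 clone, or whether replicates were separate cultures, so a p-value reflects library-to-library spread that could be technical alone.

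Drosha cuts the stem-loop of a primary miRNA transcript in the nucleus, and Dicer then trims the hairpin to a mature strand that guides Argonaute to target mRNAs through its seed. The miR-34 family is best known as a set of direct transcriptional targets of p53 that restrain the cell cycle and lower SIRT1, MET, BCL2 and Notch ligand expression. miR-34a has its own locus and is made in many tissues, where it rises with p53 activity and with age. miR-34b and miR-34c come from 1 shared transcript, and are most abundant in lung, testis and other tissues with motile cilia, as are the miR-449 miRNAs with the same seed. In adipose tissue miR-34a has been described as rising in obesity.

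The mature sequences below, from RefSeq on GRCm38.p6, are shown because they carry what defines the family. Capitals mark the seed, bases 2 to 8 counted from the 5′ end.
miR-34a-5p: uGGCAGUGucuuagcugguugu
miR-34b-5p: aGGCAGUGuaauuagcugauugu
miR-449a-5p: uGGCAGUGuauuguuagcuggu
miR-449c-5p: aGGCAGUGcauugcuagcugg
Of the family, 2 members had an entry in the sequence table, and miR-34c-5p is named only. Among the 1679 mature miRNAs of that table these 4 held the seed GGCAGUG. Beyond the seed, the match to miR-34a-5p ran without a break from base 2 to base 9 in miR-34b-5p and miR-449a-5p and to base 8 in miR-449c-5p. The whole sequences differed from miR-34a-5p by an edit distance of 4 for miR-34b-5p, 6 for miR-449a-5p and 7 for miR-449c-5p.

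Drosha acts on the hairpin, so the hairpins of the abundant member and of a scarce one are given as well, with both mature arms in capitals.
Mir34a: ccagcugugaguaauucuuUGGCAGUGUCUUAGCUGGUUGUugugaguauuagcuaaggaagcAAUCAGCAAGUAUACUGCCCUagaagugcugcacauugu
Mir34b: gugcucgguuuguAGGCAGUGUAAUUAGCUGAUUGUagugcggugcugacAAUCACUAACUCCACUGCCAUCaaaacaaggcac
The Mir34a hairpin lies at chr4:150068454-150068555 on the plus strand, and its last 17 bases fall within Gm37795, a gene of unsettled type on the same strand in GENCODE M21. Mir34b lies at chr9:51103562-51103645 and Mir34c at chr9:51103034-51103110, both on the minus strand. Both sit in an intron of Btg4, which is transcribed from the opposite strand. The 3p arms of these hairpins were not analysed here.

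The values were TPM, reads divided by feature length and scaled by the authors to the same sum in every library, so each value is a relative abundance among listed miRNAs. Whole reads were recovered from them, at 304722 and 277142 for the knockout against 1918589 to 2262367 for the controls, a 7.11-fold difference in mean depth. A read of a 22-base miRNA was worth 3.32 and 3.67 TPM in the knockout and 0.448 to 0.528 TPM in the controls. The Drosha transcript was not analysed here. As a check of the labels, miRNAs described as made without Drosha took 2.70% and 2.75% of TPM in the knockout and 0.424% to 0.577% in the controls, and all 5 tested of 9 listed were called higher as deposited, beside 27.8% of all tested miRNAs. Of these, miR-1839-5p was no longer called when knockout library 1 was left out (log2 difference 1.12; limma, adjusted p = 0.0682), when control library 1 was left out (0.99; limma, adjusted p = 0.0659) or when thinned to equal reads (1.38; limma, adjusted p = 0.113). miR-484, from a capped short hairpin, was the most abundant of them. Mesenchymal markers were present, summing to 36168 and 47003 TPM in the knockout and to 31683 to 34935 TPM in the controls. They were led by miR-21a-5p, miR-143-3p and miR-199a-5p. Of 7 tested, 3 were called higher and 1 lower, beside 27.8% and 27.3% of all tested miRNAs. The lower one was miR-10a-5p (log2 difference -1.07; limma, adjusted p = 0.00134), a call kept in 15 of 16 alternatives. miR-21a-5p was not called (log2 difference -0.22; limma, adjusted p = 0.358). The higher call was kept in 6 of 16 alternatives for miR-143-3p and in 11 for miR-199a-5p. Of 6 listed haematopoietic markers, 3 were at 0 in all libraries (miR-142a-5p, miR-144-5p and miR-223-5p), and the list summed to 77.0 and 147 TPM in the knockout and 97.2 to 138 TPM in the controls. Of its 3 tested members 1 was called higher, miR-451a, an erythroid miRNA (log2 difference 2.17; limma, adjusted p = 0.00371), though not when thinned to equal reads (1.68; limma, adjusted p = 0.086). The other 2 had negative differences that were not called, miR-155-5p of -0.70 and miR-150-5p of -1.33, and the list's median was -0.70.

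miR-34a-5p was among the most abundant of the listed miRNAs, mostly 5p strands, in both groups. It was at 42275 TPM in knockout library 1 and 53352 TPM in knockout library 2. In the controls it was at 32678, 42748 and 29678 TPM. Knockout library 2 was above every control library, while knockout library 1 was just below control library 2, so the groups overlapped. These values rest on 12744 and 14550 recovered reads for the knockout, and on 72944, 85651 and 56261 for the controls. Counting error was therefore small beside the spread between libraries: the exact Poisson 95% interval of knockout library 1 ran from 41544 to 43016 TPM. Here and below such intervals cover counting error only.

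The mean of miR-34a-5p was 47814 ± 7833 TPM (SD, n = 2) for the knockout against 35035 ± 6847 TPM (SD, n = 3) for the controls, a ratio of 1.36. The log2 difference, knockout minus empty vector on log2(TPM + 1), was 0.46 (SE 0.22), and it did not pass the threshold of 0.05 (limma, Benjamini-Hochberg adjusted p = 0.0787 over all miRNAs tested, unadjusted p = 0.0476). Its unadjusted 95% interval ran from 1.00-fold to 1.88-fold. Without control library 2 the difference was 0.61 and passed narrowly (limma, adjusted p = 0.0496), and in the other alternatives that kept this sign the adjusted p reached up to 0.273. Over all 16 alternatives it ranged from 3.90e-08 to 0.273, the lowest belonging to a rescaling, described below, that turned the sign.

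miR-34c-5p, the second most abundant member, was far scarcer. It was at 34.9 and 56.1 TPM in knockout libraries 1 and 2, from 11 and 16 reads. In the controls it was at 36.0, 46.3 and 51.5 TPM, from 84, 97 and 102 reads. The lowest and the highest of the 5 values were both knockout libraries. The group means were 45.5 ± 15.001 TPM (SD, n = 2) and 44.6 ± 7.88 TPM (SD, n = 3), with a log2 difference of 0.0055 (SE 0.42; limma, adjusted p = 0.9898). The sign turned under several alternatives, and the 95% interval ran from 0.552-fold to 1.83-fold.

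miR-34b-5p was the scarcest member. It was at 22.2 and 24.6 TPM in knockout libraries 1 and 2, on 7 reads each. In the controls it was at 14.1, 24.8 and 29.3 TPM, from 33, 52 and 58 reads. Both knockout values lay within the range of the control values. The exact Poisson 95% interval of knockout library 1 spanned 8.93 to 45.8 TPM, wider than that whole range. The group means were 23.4 ± 1.66 TPM (SD, n = 2) and 22.7 ± 7.77 TPM (SD, n = 3), with a log2 difference of 0.096 (SE 0.50; limma, adjusted p = 0.866) and a 95% interval from 0.525-fold to 2.18-fold.

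**Figure D1:**
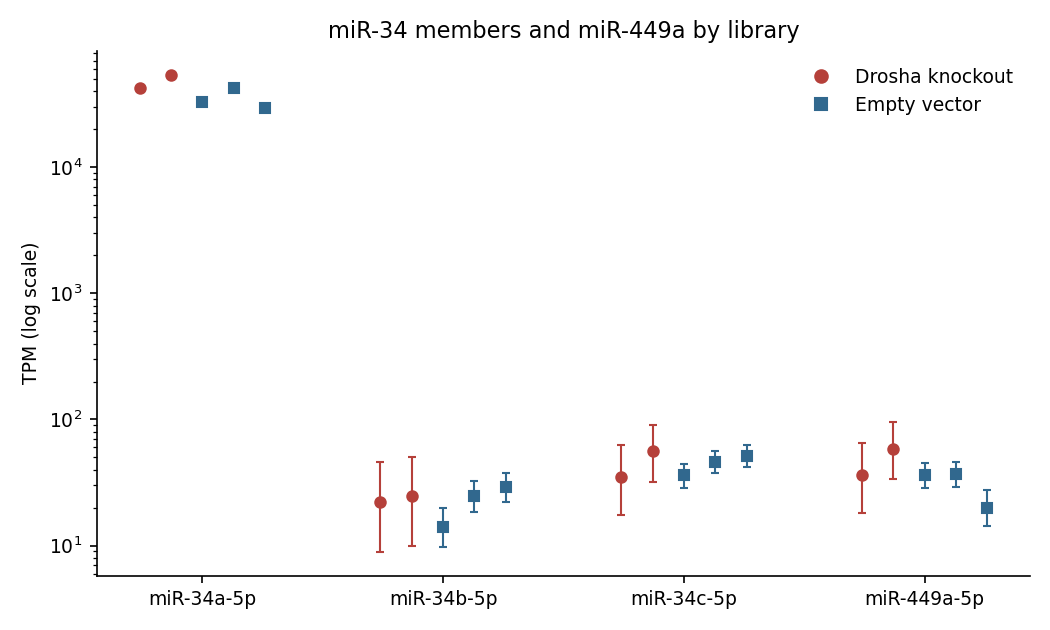
TPM (log scale) of each miR-34 member and of miR-449a-5p in 2 knockout libraries (circles) and 3 control libraries (squares), with exact Poisson 95% intervals of the recovered reads. miR-34a-5p lies between 29678 and 53352 TPM, the others between 14.1 and 58.7 TPM, and the groups overlap for each.

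All 3 members passed the filter on low values, which required 5 TPM on average across libraries, and for each member both groups' means were above it. None of the 3 was called, in a comparison where 113 miRNAs were called and 92 were not, so that 55.1% were called in either direction (27.8% higher and 27.3% lower). The groups overlapped for all 3, while 73.7% of tested miRNAs had groups that did not overlap. The median log2 difference of the 3 members was 0.096, that of miR-34b-5p, beside -0.08 over all tested. By absolute size, the difference of miR-34c-5p as deposited (SE 0.42) was the smallest of all tested. With 1 library left out it ran from -0.33 to 0.34. Only 2.93% of tested miRNAs had a smaller difference than miR-34b-5p, and 19.5% a smaller one than miR-34a-5p.

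As TPM is relative, the direction depends on what is held equal. Rescaling each library to an equal sum of the miRNAs made without Drosha moved the median over all tested miRNAs by -2.47 on the log2 scale and put 78% of them lower and 0.976% higher. All 3 members were then called lower. miR-34a-5p had a log2 difference of -2.07 (limma, adjusted p = 3.90e-08), miR-34b-5p had -2.33 (limma, adjusted p = 8.83e-05) and miR-34c-5p had -2.47 (limma, adjusted p = 2.55e-06). Relative to the median of that same rescaling the 3 stood at 0.49, 0.23 and 0.088. Relative to the median of the values as deposited they stood at 0.54, 0.18 and 0.089. The rescaling multiplies all miRNAs of a library by 1 factor, so this closeness is set by arithmetic, the pseudocount aside, and tests nothing. The ratio of miR-34a-5p to miR-484 in TPM came to 1.95 and 2.54 for the knockout. For the controls it was 8.98, 12.1 and 5.81, so the groups did not overlap. This ratio largely repeats the rescaling, as miR-484 was most of that sum (21642 of 27015 TPM in knockout library 1 and 3640 of 4338 TPM in control library 1). miR-484 was itself higher in the knockout (log2 difference 2.40), and how many other miRNAs separate in such a ratio was not counted. After the rescaling, the 5 tested miRNAs made without Drosha did not move together. Their log2 differences ran from -1.33 (miR-1839-5p) to 2.05 (miR-877-5p). Which scale reflects the amount per cell cannot be told from these relative values.

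**Figure D2:**
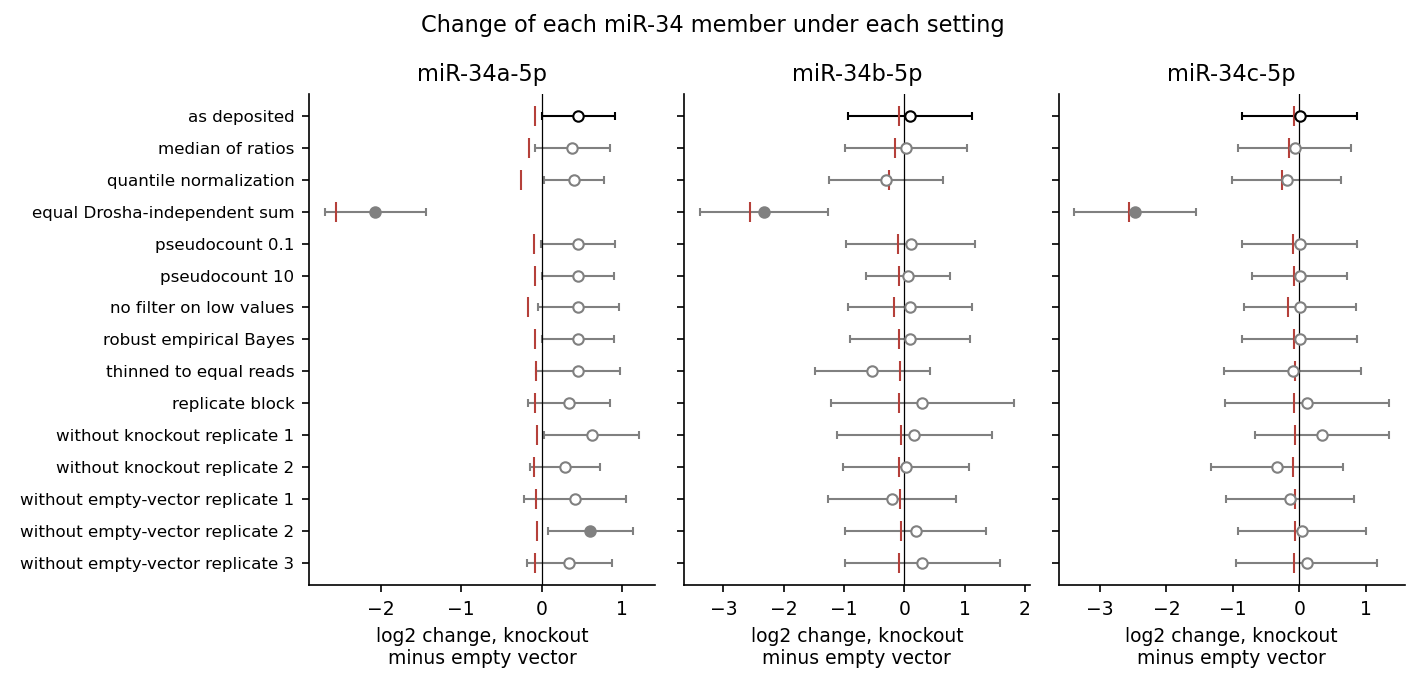
Log2 difference (knockout minus empty vector) of each member under each setting, with 95% intervals; filled points passed the adjusted threshold of 0.05 and red ticks give the median of all miRNAs tested in that setting. Each member follows the red tick to about -2 or below when libraries are set to an equal Drosha-independent sum, and miR-34a-5p lies above it in every setting drawn (the strict filter and the sum of all pairs are not drawn).

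Within the libraries, miR-34a-5p held rank 5 and rank 4 in the knockout and ranks 7, 5 and 7 in the controls, where rank 1 is the most abundant listed miRNA. It alone was 4.23% and 5.34% of TPM in the knockout and 3.27%, 4.27% and 2.97% in the controls. In the knockout its neighbours by group mean were miR-181a-5p above, at 78601 ± 23620 TPM (SD, n = 2), and let-7a-5p below, at 47383 ± 9225 TPM (SD, n = 2). let-7a-5p, a growth-restraining miRNA, was above miR-34a-5p in knockout library 1 (53906 TPM) and below it in knockout library 2 (40860 TPM), so this order did not hold beyond the spread. In the controls let-7a-5p stood above it at 39125 ± 7074 TPM and let-7i-5p below it at 32290 ± 5388 TPM (SD, n = 3), again within the spread.

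The minor members sat in the middle of the list. miR-34c-5p held ranks 131 and 113 in the knockout and 122, 117 and 114 in the controls. miR-34b-5p had a mean rank of 144.5 ± 2.12 (SD, n = 2) in the knockout and held ranks 150, 136 and 129 in the controls. Their neighbours by group mean were within the spread as well. In the knockout, miR-34b-5p lay between miR-714 (23.9 TPM) and miR-872-5p (23.3 TPM), and miR-34c-5p between miR-449a-5p (47.6 TPM) and miR-466h-5p (42.4 TPM). In the controls, miR-34b-5p lay between miR-3102-5p.2-5p (25.2 TPM) and miR-455-5p (22.6 TPM), and miR-34c-5p between miR-2137 (45.6 TPM) and miR-1843b-5p (43.1 TPM). Each library listed 287 to 333 miRNAs above 0, fewer in the knockout (291 and 287) than in the controls (324, 331 and 333). A rank in the knockout is thus one among fewer detected miRNAs, and 49.5% and 49.8% of these lay below miR-34b-5p there, against 53.7% to 61.3% in the controls. miR-34c-5p had 55.0% and 60.3% below it in the knockout and 62.3% to 65.8% in the controls. Mean depth was 7.11-fold higher in the controls, and its part in these percentages was not tested.

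**Figure D3:**
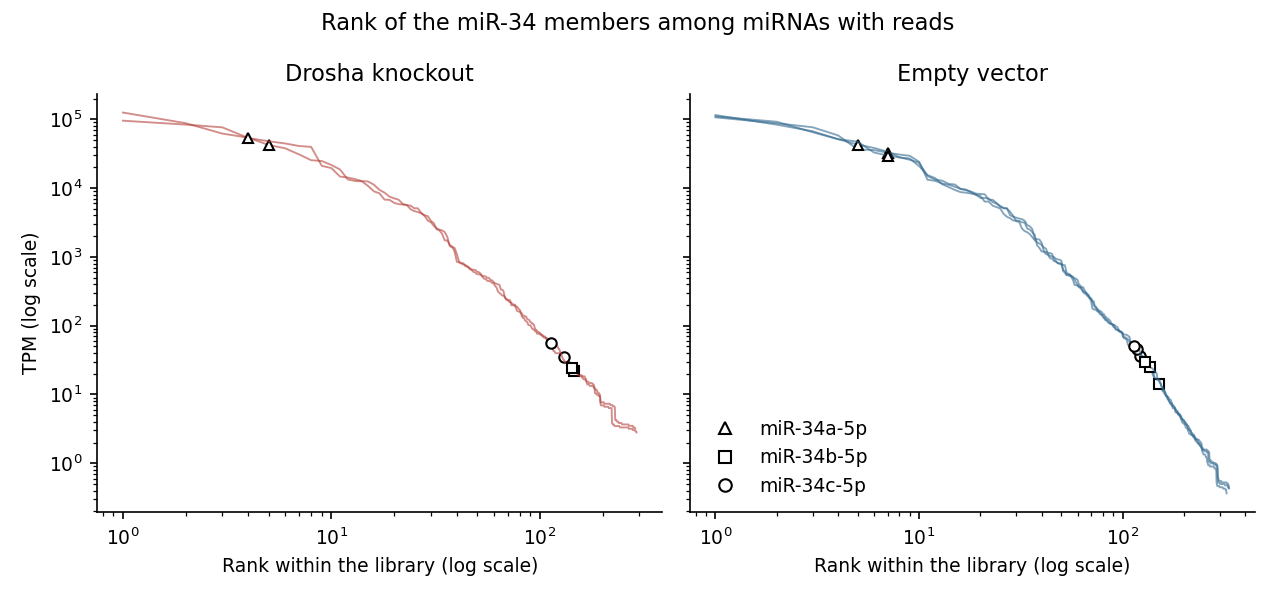
TPM against rank within the library (both log scales), with 1 line per library and the miR-34 members marked, in the knockout (left) and the controls (right). miR-34a-5p sits at ranks 4 to 7 in all 5 libraries, and miR-34b-5p and miR-34c-5p at ranks 113 to 150.

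The make-up of the family was nearly all miR-34a-5p in every library. It took 99.86% and 99.84% of miR-34 reads in the knockout, and 99.72% to 99.84% in the controls. miR-34c-5p took 0.0862% (exact binomial 95% interval 0.0430% to 0.154%) and 0.110% (0.0628% to 0.178%) in the knockout. In the controls it took 0.115%, 0.113% and 0.181%, all above both knockout values, although the intervals of the knockout libraries held the first 2 of these. The TPM of miR-34c-5p itself overlapped between the groups, and how many other miRNAs separate as a share of miR-34a-5p was not counted. miR-34b-5p took 0.0549% and 0.0480% in the knockout and 0.0452%, 0.0606% and 0.103% in the controls, with overlap between the groups. Control library 3, which had the least miR-34a-5p of the 5, had the highest share of both minor members.

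Within the shared transcript of the minor members, miR-34c-5p was above miR-34b-5p in all 5 libraries. miR-34b-5p took 38.9% (exact binomial 95% interval 17.3% to 64.3%) and 30.4% (13.2% to 52.9%) of their joint reads in the knockout. It took 28.2%, 34.9% and 36.3% in the controls, within those intervals. The mean share was 34.7% ± 5.98 (SD, n = 2) and 33.1% ± 4.31 (SD, n = 3). Recovered lengths were 23 bases for both, so the ratio is the same in reads and in TPM.

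Each pair of members was compared as the log2 ratio of their TPM + 1 within a library, 3 pairs in all. The mean log2 ratio of miR-34a-5p to miR-34b-5p was 10.93 in the knockout and 10.57 in the controls, a difference of 0.36 (exact permutation test, two-sided, p = 0.6). For miR-34a-5p to miR-34c-5p the means were 10.03 and 9.58, a difference of 0.45 (exact permutation p = 0.3). For miR-34c-5p to miR-34b-5p they were 0.89 and 0.99, a difference of -0.09 (exact permutation p = 0.8). All 3 had a Benjamini-Hochberg adjusted p = 0.8 over these pairs. With 2 libraries against 3, the smallest p this test can give is 0.1, so it could not have passed the threshold.

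**Figure D4:**
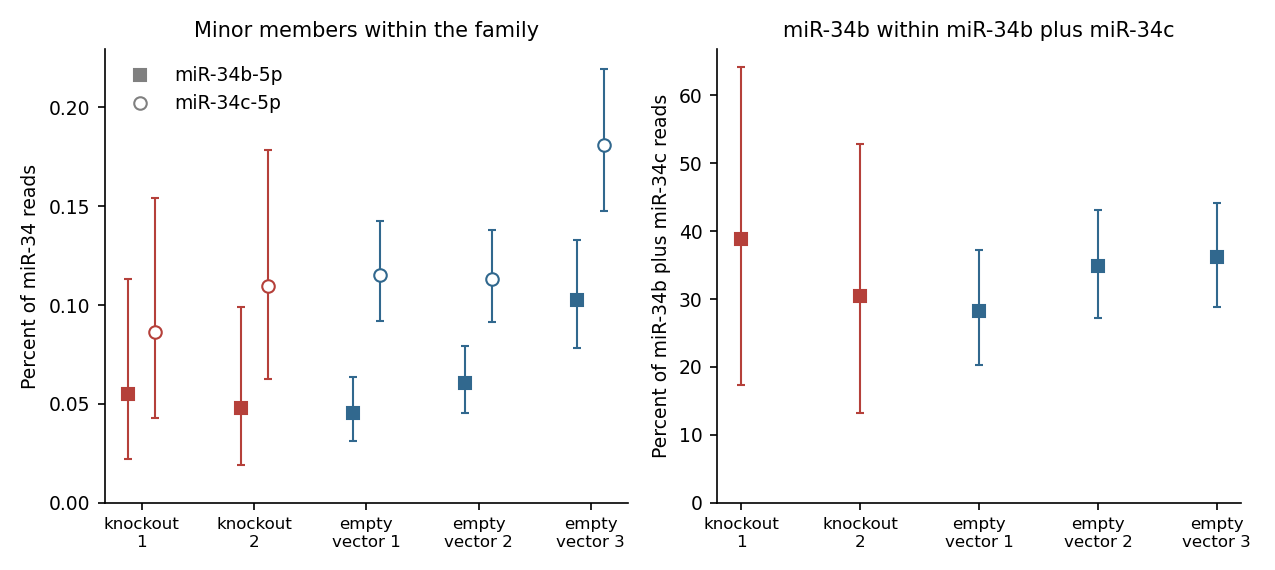
Left, percent of miR-34 reads taken by miR-34b-5p (squares) and miR-34c-5p (open circles) in each library; right, percent of their joint reads taken by miR-34b-5p, with exact binomial 95% intervals. The minor members stay at or below 0.181% of the family, and miR-34b-5p takes 28.2% to 38.9% of their joint reads.

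The miR-449 miRNAs, from an intron of Cdc20b and known in multiciliated cells, share the seed and were read beside the family. miR-449a-5p was at 36.5 and 58.7 TPM in the knockout, on 11 and 16 reads. It was at 36.3, 36.9 and 20.0 TPM in the controls, on 81, 74 and 38 reads. Knockout library 1 lay within the control range, and the log2 difference of 0.61 (SE 0.45) was not called (limma, adjusted p = 0.240). miR-449b and miR-449c-5p were at 0 in all libraries, where 3 reads, the rounded one-sided 95% Poisson limit that a count of 0 allows, would be 9.95 and 11.0 TPM in the knockout and 1.34 to 1.58 TPM in the controls at 22 bases.

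With these included, miR-34a-5p still made up 99.7% to 99.8% of the TPM summed over the 6 listed miRNAs with this seed or family name. The scarce ones were each below 0.2% of miR-34a-5p: miR-449a-5p at 0.0863% and 0.110% of it in the knockout and 0.0675% to 0.111% in the controls, miR-34c-5p at 0.0826% to 0.173% over the 5 libraries and miR-34b-5p at 0.0433% to 0.0986%. The sources used here do not say how reads matching several of these similar sequences were counted, so the scarce values are uncertain, and a part of miR-34a-5p reads in them was not tested. Of the epithelial and multiciliated markers, 9 of 11 were at 0 in all libraries, among them miR-200a-5p, miR-200b-5p, miR-200c-5p, miR-141-5p, miR-429-5p and miR-375-5p. For these miRNAs the 5p strand is the less abundant one, as it is for miR-144 and miR-223, and their 3p strands were not analysed here, so these zeros do not show the markers to be absent. The whole list summed to 36.5 and 66.0 TPM in the knockout and 23.7 to 40.4 TPM in the controls, mostly miR-449a-5p.

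miRNAs described as regulated by p53, either in transcription or in processing by the Drosha complex, were read as a list beside the family. Of 17 listed, 9 were tested, 3 were called higher, 0 lower and 6 were not called, including all 3 miR-34 members. The median log2 difference was 0.16 over the 9, beside -0.08 over all tested, and the share called higher over all tested was 27.8%. miR-145a-5p and miR-143-3p, which share a primary transcript and mark smooth muscle and stroma, were both called. miR-145a-5p was at 2523 and 7088 TPM in the knockout and 1100, 1598 and 2280 TPM in the controls, a log2 difference of 1.41 (SE 0.32; limma, adjusted p = 0.000851). Its high value came from knockout library 2, and without that library the difference was 0.67 and not called (limma, adjusted p = 0.0518), as it was not without control library 1 (1.15; limma, adjusted p = 0.0751).

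miR-143-3p was at 12546 and 12465 TPM in the knockout and 9523, 8185 and 8724 TPM in the controls, a log2 difference of 0.51 (SE 0.21; limma, adjusted p = 0.0463). miR-194-5p, a p53-responsive miRNA of gut and liver, was at 163 and 187 TPM in the knockout and 88.3, 105 and 102.9 TPM in the controls, a log2 difference of 0.82 (SE 0.33; limma, adjusted p = 0.0387). For both, every knockout library was above every control library, but 73.7% of all tested miRNAs also had groups that did not overlap. For both, the call was lost when any 1 of the 5 libraries was left out. The log2 differences then were 0.46 to 0.57 for miR-143-3p and 0.72 to 0.92 for miR-194-5p, on fewer libraries. Without single libraries, the adjusted p in limma ran from 0.0629 to 0.147 for miR-143-3p and from 0.0538 to 0.159 for miR-194-5p. The other tested members were not called: miR-192-5p, which shares a cluster with a copy of miR-194, had a log2 difference of -0.32, miR-16-5p of -0.03 and miR-15a-5p of 0.16. Over the 16 alternatives the higher call was kept in 11 for miR-145a-5p, 6 for miR-143-3p and 5 for miR-194-5p. All 9 tested members of this list were negative after rescaling to the Drosha-independent sum. That rescaling gave a median of -2.56 over all tested miRNAs and put 78% of them lower, so this is not particular to the list. The other 8 listed were below the filter, 4 of them at 0 in all libraries. These 8 are all 5p strands. Apart from miR-143-3p their 3p strands were not analysed here, so the low values do not show these miRNAs to be absent.

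The miRNAs whose profile over the 5 libraries was most like that of each member were found by the root mean square difference of log2(TPM + 1) after each miRNA's own mean was subtracted. Such likeness is a description over 5 libraries that share their depth and scaling. For miR-34a-5p they were miR-31-5p (0.112), miR-345-5p (0.117) and miR-199a-5p (0.163), beside a median of 0.697 over 204 miRNAs. miR-31-5p was at 4021 and 5651 TPM in the knockout and 3144, 3821 and 3288 TPM in the controls, and was not called (log2 difference 0.48; limma, adjusted p = 0.0778). miR-345-5p was at 481 and 730 TPM in the knockout and 365, 483 and 380 TPM in the controls, and was not called (log2 difference 0.54; limma, adjusted p = 0.09996). miR-199a-5p, a mesenchymal miRNA, was called higher (log2 difference 0.70; limma, adjusted p = 0.0142), though not without knockout library 2 (0.45; limma, adjusted p = 0.131) or control library 1 (0.58; limma, adjusted p = 0.141), and it was negative (-1.83) after rescaling to the Drosha-independent sum.

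For miR-34b-5p the nearest were miR-15a-5p (0.203), miR-33-5p (0.229) and miR-34c-5p (0.242). For miR-34c-5p they were miR-140-5p, a cartilage and stromal miRNA (0.137), miR-192-5p (0.206) and miR-21a-5p (0.206), with miR-34b-5p in place 6. miR-34a-5p stood at place 29 for miR-34b-5p and at place 28 for miR-34c-5p, with differences of 0.411 and 0.344. The pair from 1 transcript was thus nearer to each other than either was to miR-34a-5p, at a depth where 7 to 16 reads set the knockout values.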

How the data were processed

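The authors deposited TPM values in 1 table, with 1191 combinations of mature miRNA and precursor across 5 libraries. The submitters' processing notes name Bowtie2 2.5.1 and GRCm38, without roles. Libraries carried unique molecular identifiers, per the labels' protocols. The counting tool, the filters and any use of the identifiers were not stated in those sources. The combination with the highest mean was kept for each mature miRNA. Whole reads were recovered by searching lengths of 15 to 30 bases at which every value was whole within 1e-06. All values came out whole (100%), 6 of 536 combinations with reads allowed more than 1 length, and the length matched RefSeq for 381 of 381 miRNAs with an entry. These reads count listed miRNAs, not all reads sequenced.

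Groups were compared on log2(TPM + 1) by limma 3.58.1 (R 4.3.3), using a trended prior, for miRNAs averaging 5 TPM or more, two-sided, with Benjamini-Hochberg adjustment over all of them. The fit had 3 residual and 24.2 prior degrees of freedom. Log2 differences understate changes of low miRNAs. No count model was run on these TPM values, although reads were recovered. The ratios of members were compared by an exact permutation test in Python 3.11.15, counting arrangements with an absolute difference at least as large. Alternatives covered scaling, pseudocount, filter, variance prior, depth, precursors, the replicate number and each library left out. Thinning to equal reads was a single random draw, and how far thinned values differ between draws was not tested. Members and lists were chosen with earlier results of these data known. Named miRNAs were the members, the listed miRNAs of the miR-34 and miR-449 families, the tested p53 miRNAs, up to 3 per marker list besides markers at 0 and single calls, the 3 nearest profiles of each member and its neighbours in rank.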

Additional observations from a re-analysis of the deposited data

How the results depend on the processing

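Of the 16 alternatives to the values as deposited, those not named here left each miR-34 member with the same sign and not called in limma with Benjamini-Hochberg adjustment. After rescaling to an equal Drosha-independent sum miR-34a-5p (-2.07), miR-34b-5p (-2.33) and miR-34c-5p (-2.47) were called lower, as were 160 miRNAs with 2 higher, and the rescaling itself sets this shift. Quantile normalization gave -0.30 for miR-34b-5p and -0.19 for miR-34c-5p, and the median of ratios gave -0.068 for miR-34c-5p. Leaving out 1 library gave 0.29 to 0.62 for miR-34a-5p, called (0.61) without control library 2. It gave -0.20 to 0.30 for miR-34b-5p and -0.33 to 0.34 for miR-34c-5p. The negative values were -0.20 for miR-34b-5p and -0.14 for miR-34c-5p without control library 1, and -0.33 for miR-34c-5p without knockout library 2. It gave 39 to 61 miRNAs higher and 29 to 54 lower, the fewest in both directions (39 and 29) without control library 1, against 57 and 56 with all libraries. Thinned to 277142 reads in each library by a single random draw, miR-34b-5p had -0.53 and miR-34c-5p -0.098. In that draw 32 miRNAs were higher and 31 lower. There the log2 ratio moved to 0.99 for miR-34a-5p over miR-34b-5p and to 0.43 for miR-34c-5p over miR-34b-5p. At a mean of at least 50 TPM 31 were higher, and miR-34b-5p and miR-34c-5p were below that filter. Leaving out 1 library moved the log2 ratios to 0.045 to 0.61 for miR-34a-5p over miR-34b-5p, 0.23 to 0.62 over miR-34c-5p, and -0.36 to 0.18 for miR-34c-5p over miR-34b-5p.

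With the replicate number as a block, miR-34a-5p had 0.35, miR-34b-5p 0.30 and miR-34c-5p 0.11, none called, with 39 miRNAs higher and 35 lower, and among the miRNAs named here miR-1839-5p, miR-143-3p and miR-194-5p lost their calls (limma, adjusted p = 0.0788, 0.121 and 0.135). The groups share only 2 numbers, and the numbers were not taken as pairs. Deviations of same-numbered libraries correlated at -0.12 and -0.14 across miRNAs. The deviations of 2 knockout libraries mirror each other, so these correlations cannot decide whether libraries were paired.

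With all pairs summed, the mean rank was 7.67 for miR-34a-5p in the controls and 148.5 for miR-34b-5p in the knockout. Among names ending in 5p, the mean rank was 128 and 126.7 for miR-34b-5p in the knockout and the controls and 107.7 for miR-34c-5p in the controls. Thinned, miR-34b-5p had a mean rank of 123 in the controls. The cause of these moves was not tested. With 7 to 16 knockout reads, depth limits what can be said of miR-34b-5p and miR-34c-5p.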
